A study of Mus musculus with 24 samples.

Results

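The prostanoid receptors are the 9 G protein-coupled receptors through which prostaglandins and thromboxane act: Ptger1, Ptger2, Ptger3 and Ptger4 for prostaglandin E2, Ptgdr and Ptgdr2 for prostaglandin D2, Ptgir for prostacyclin, Ptgfr for prostaglandin F2α and Tbxa2r for thromboxane. Chromatin at their genes was followed by ATAC-seq, which uses a transposase to insert adapters into accessible DNA, across 24 libraries prepared from bone marrow-derived macrophages (BMDMs) of mice. A peak was counted for a receptor if it overlapped the gene body or the 20 kb on either side of it, which gave 117 of the 184158 consensus peaks of the study, and 0 peaks fell in the windows of more than 1 receptor. The 4 groups held 6 libraries each: BMDMs from wildtype (WT) C57BL/6J mice and from mice homozygous for the Ahr tm1Bra null allele in every cell (AhR-KO, on the B6.129 background), each unstimulated or stimulated with lipopolysaccharide (LPS), the endotoxin of Gram-negative bacteria, which acts through TLR4. AhR, the aryl hydrocarbon receptor, is a ligand-activated transcription factor. Mice were young adults of both sexes. In all groups marrow was grown in 10% serum with GM-CSF at 10 ng/ml and TGF-β at 2 ng/ml, which drives an alveolar-like macrophage; stimulated cultures then received 97 EU/ml of LPS from day 6 over 24 h, and a calcium ionophore (A23187) at 5 µM for the last 10 min. The labels attach the LPS and ionophore text to every library, so what unstimulated cultures received beyond medium is not stated.

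Prostanoids are made from arachidonic acid by the cyclooxygenases and terminal synthases, leave the cell and act on the same cell or its neighbours. The receptors differ in the G protein they use. Ptger2, Ptger4, Ptgdr and Ptgir couple to Gs and raise cyclic AMP, which restrains cytokine release in macrophages. Ptger3 and Ptgdr2 couple to Gi and lower cyclic AMP, and Ptger1, Ptgfr and Tbxa2r couple to Gq and raise calcium. The question put to the data was how loss of AhR and stimulation with LPS changed accessibility at each of these loci.

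Total counts in peaks ran from 8.54 to 34.6 M (mega) per library, lowest in replicate 5 of unstimulated WT. Levels are given as CPM, counts per M counts in peaks after normalization. At the start site of Ahr itself, unstimulated AhR-KO libraries held 11.5 to 15.1 CPM against 20.2 to 24.6 in WT, and with LPS 11.9 to 16.8 against 18.99 to 22.2, so the genotypes did not overlap. Accessibility of a start site does not read the disrupted part of the allele, so this does not check the genotype labels. None of the 9 receptors lies on chromosome 12 with Ahr, where DNA of the donor strain may be retained around the targeted allele. Of the markers examined, 7 of 8 macrophage genes and 5 of 5 alveolar macrophage genes had a tested peak over a start site, Spi1 being the one without, against 0 of 3 T cell, 0 of 3 B cell and 0 of 2 endothelial genes. Among markers of other cells, S100a8 of neutrophils, Kit of mast cells, Zbtb46 and Flt3 of dendritic cells, Hbb-b1 of erythroid cells, Epcam and Cdh1 of epithelium and Pdgfra of fibroblasts also had one, with group means from 0.798 to 25.1 CPM, and the part of such cells in the results was not tested.

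The 117 peaks were spread unevenly, from 7 around Ptgdr to 29 around Ptger3. Inside the gene bodies lay 51, of them 38 in introns, with 31 upstream and 35 downstream. A receptor's own start site was covered by 6 peaks, at Ptger1, Ptger2, Ptger3, Ptger4, Ptgir and Ptgfr. Ptgdr, Ptgdr2 and Tbxa2r had no peak over a start site in the consensus set or in any library's own peak list, and Tbxa2r had no peak inside its gene body. A further 7 peaks covered start sites of neighbouring genes (Cactin, Gipc3, Hmg20b, Ccdc86, Gng8, Calm3 and Gipc1), and 29 of the 117 lay nearer to the start site of another gene than to that of the receptor. After removal of peaks with low counts 108 were tested. The 9 removed peaks, 6 of them at Ptger3, were 146 to 301 bases wide and had group means of at most 0.408 CPM.

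Over all receptors together, the share of differentially accessible regions (DARs: adjusted p of at most 0.05 in edgeR's quasi-likelihood test and at least 1.5-fold change) was near that of the whole peak set for genotype and below it for LPS. In unstimulated cells 21 peaks were lower and 8 higher in AhR-KO than in WT, 26.9% of the 108 against 22.6% of all tested peaks, or 12.6% lower and 9.95% higher. The split was 17 lower and 11 higher with RLE size factors in place of TMM. With LPS, 15 were lower and 7 higher in AhR-KO, 20.4% against 26.5% of all peaks (13.1% lower and 13.4% higher). LPS against unstimulated gave 27 lower and 13 higher in WT (37.0% against 47.0%, with 21.6% of all peaks lower and 25.4% higher) and 21 lower and 13 higher in AhR-KO (31.5% against 48.8%, with 21.5% lower and 27.3% higher). The genotype difference itself differed between LPS and unstimulated cells (interaction) at 10 peaks, 4 lower and 6 higher, 9.26% against 10.4% of all peaks (4.58% lower and 5.83% higher). The median log2 fold change over the 108 tested peaks was -0.06 and -0.08 for genotype without and with LPS, against -0.02 and 0.02 over all tested peaks. For LPS it was -0.01 in WT and -0.15 in AhR-KO, against -0.01 and 0.05. The counts that follow differ widely from receptor to receptor.

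**Figure D1:**
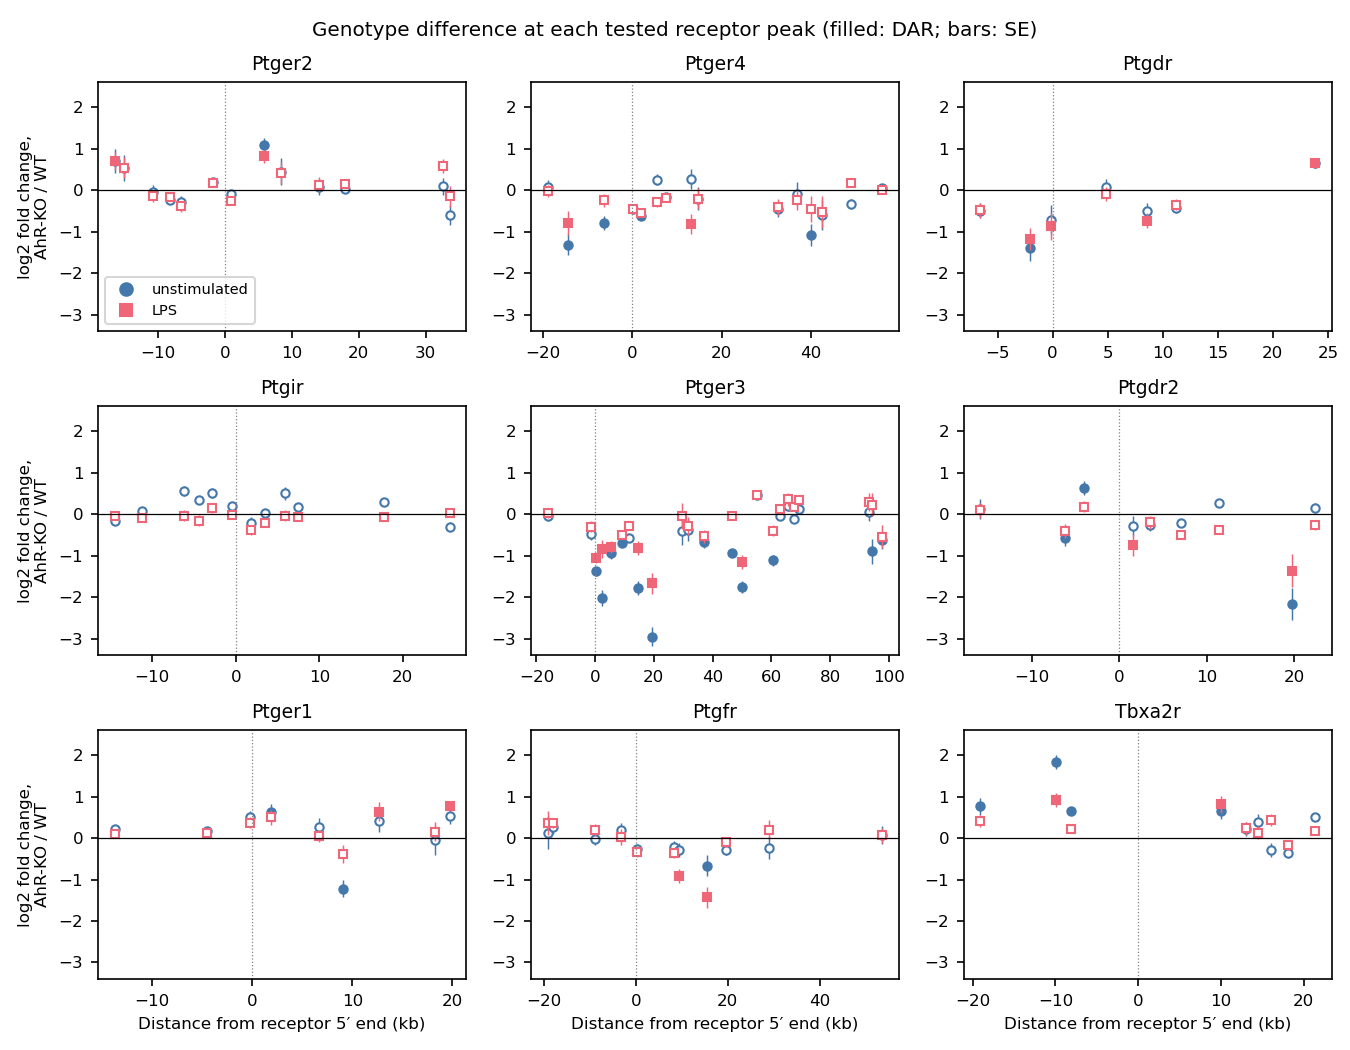
Log2 fold change of AhR-KO against WT (vertical axis, with SE) for the 108 tested receptor peaks by their distance from the receptor's 5′ end in kb (horizontal axis), in unstimulated cells (blue circles) and with LPS (red squares); filled symbols are DARs. The lower DARs crowd the gene body of Ptger3, whereas Ptgir has no filled symbol and those of Tbxa2r lie above 0.

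Ptger3, the Gi-coupled receptor for prostaglandin E2, held 12 of the 21 peaks that were lower in unstimulated AhR-KO cells. Of its 23 tested peaks 12 were lower and 0 higher in unstimulated AhR-KO cells, 52.2% of those tested against 12.6% of all peaks lower, and the count was also 12 without the filter on low counts. With LPS 6 were lower and 0 higher (26.1% against 13.1% of all peaks lower), and all 6 were among the 12. The median log2 fold change over its tested peaks was -0.62 without and -0.30 with LPS. Of the markers of other cells, the start sites of Kit, of mast cells and progenitors, and Flt3, of dendritic cells and progenitors, were also lower in AhR-KO, with log2 fold changes of -1.21 and -1.16 without LPS and of -1.24 and -1.29 with LPS (adjusted p = 9.35e-12, 5.31e-07, 1.66e-12 and 2.42e-08), whereas Cpa3 and Ms4a2 of mast cells had no start-site peak. Zbtb46, the other dendritic marker, had 1 start-site peak that was higher in AhR-KO (0.88, adjusted p = 0.000273, and with LPS 1.52, adjusted p = 1.08e-09) and 1 that was no DAR (0.21 and -0.19); the part of such cells in the loss at Ptger3 was not tested. Of the macrophage and alveolar macrophage markers, Itgax, Car4 and Marco were DARs higher in unstimulated AhR-KO. Their log2 fold changes were 0.72, 0.61 and 0.94 (adjusted p = 3.74e-09, 5.07e-05 and 2.81e-05). With LPS none of them was a DAR, and the other markers of these lists with a start-site peak were DARs under neither treatment. In these bulk samples fewer cells with an open locus and less opening per cell cannot be told apart. The sequences below are those of its promoter and of the central 300 bases of 3 of the 4 intronic peaks that fell most in unstimulated AhR-KO, read from GRCm38 (mm10) on the plus strand, the strand of Ptger3; the promoter is RefSeq's, the 250 bases before its start site. Capitals mark matches on either strand to any of the motifs searched: GCGTG, the core bound by AhR with its partner Arnt, TGACGTCA, the cyclic AMP response element, TGANTCA of AP-1, GAGGAA of PU.1, TTGCNNAA of C/EBP, and the NF-kB and IRF motifs.
Ptger3 promoter, chr3:157566626-157566875: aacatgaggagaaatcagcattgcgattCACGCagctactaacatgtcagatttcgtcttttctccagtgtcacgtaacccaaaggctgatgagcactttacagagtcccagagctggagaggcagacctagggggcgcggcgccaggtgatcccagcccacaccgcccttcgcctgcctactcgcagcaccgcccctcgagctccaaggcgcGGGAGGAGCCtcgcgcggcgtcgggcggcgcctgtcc
Ptger3 +14.7 kb, chr3:157581487-157581786: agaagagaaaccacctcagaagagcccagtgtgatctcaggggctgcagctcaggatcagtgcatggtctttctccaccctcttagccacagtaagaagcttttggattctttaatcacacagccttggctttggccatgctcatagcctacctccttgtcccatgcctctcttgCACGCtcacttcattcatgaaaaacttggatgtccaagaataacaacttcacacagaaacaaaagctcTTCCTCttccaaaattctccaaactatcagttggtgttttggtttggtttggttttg
Ptger3 +19.4 kb, chr3:157586113-157586412: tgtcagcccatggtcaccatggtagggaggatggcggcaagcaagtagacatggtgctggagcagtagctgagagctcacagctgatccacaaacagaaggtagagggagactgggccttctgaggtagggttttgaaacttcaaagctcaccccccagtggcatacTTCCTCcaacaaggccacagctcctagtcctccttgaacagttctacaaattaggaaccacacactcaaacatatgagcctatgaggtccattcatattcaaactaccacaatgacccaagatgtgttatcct
Ptger3 +50.2 kb, chr3:157616910-157617209: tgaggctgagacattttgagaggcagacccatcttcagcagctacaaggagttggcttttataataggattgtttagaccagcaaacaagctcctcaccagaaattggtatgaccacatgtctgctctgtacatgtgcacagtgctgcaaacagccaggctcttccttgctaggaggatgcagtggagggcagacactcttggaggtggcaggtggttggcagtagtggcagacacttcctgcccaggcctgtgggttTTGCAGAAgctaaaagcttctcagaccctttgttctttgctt

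The promoter held 1 AhR core (CACGC, its reverse complement) and 1 NF-kB match, and the same numbers over the 300 bases of its full RefSeq entry. That AhR core lies just upstream of the start-site peak and not inside it. Over such 300-base entries, 32.4% of all RefSeq promoters hold the AhR core and 20.7% the NF-kB pattern. The +14.7 kb window held 1 AhR core and 1 PU.1 match, the +19.4 kb window 1 PU.1 match and the +50.2 kb window 1 C/EBP match. Of the peak windows, an AhR core was in 4 of the 12 that were lower in unstimulated AhR-KO and in 1 of the 11 other tested Ptger3 windows, with median GC contents of 49.0% and 45.7%. Such matches describe letters and not binding.

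At the start site of Ptger3 (chr3:157566660-157568037, over UTR and coding sequence in GENCODE), unstimulated WT libraries ranged from 16.3 to 22.1 CPM around a median of 18, and unstimulated AhR-KO from 6.44 to 8.30 around 6.63. With LPS, WT ranged from 7.93 to 12.3 around 9.56 and AhR-KO from 3.77 to 5.96 around 4.44. Every AhR-KO library lay below every WT library of the same treatment, and every LPS library below every unstimulated library of the same genotype, which held in either direction for 21% and 19.6% of all tested peaks for genotype and 38.7% and 45.6% for LPS. Loss of AhR lowered it in unstimulated cells (log2 fold change -1.38 ± 0.11 (SE), adjusted p = 1.13e-12) and with LPS (-1.06 ± 0.11, adjusted p = 8.34e-10). LPS lowered it in WT (-0.91 ± 0.10, adjusted p = 7.13e-10) and in AhR-KO (-0.59 ± 0.11, adjusted p = 2.05e-05). Means were 18.3 ± 2.12 CPM (SD, n = 6) in unstimulated WT and 4.67 ± 0.879 in AhR-KO with LPS, the highest and lowest of the 4 groups. It was the 1 start-site peak among the 6 that was a DAR, and it was one in all 4 pairwise comparisons; 6.22%, 6.98%, 10.4% and 15.9% of start-site peaks of protein-coding genes were DARs in these, and 3.6% in the interaction, in which 0 of the 6 were.

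**Figure D2:**
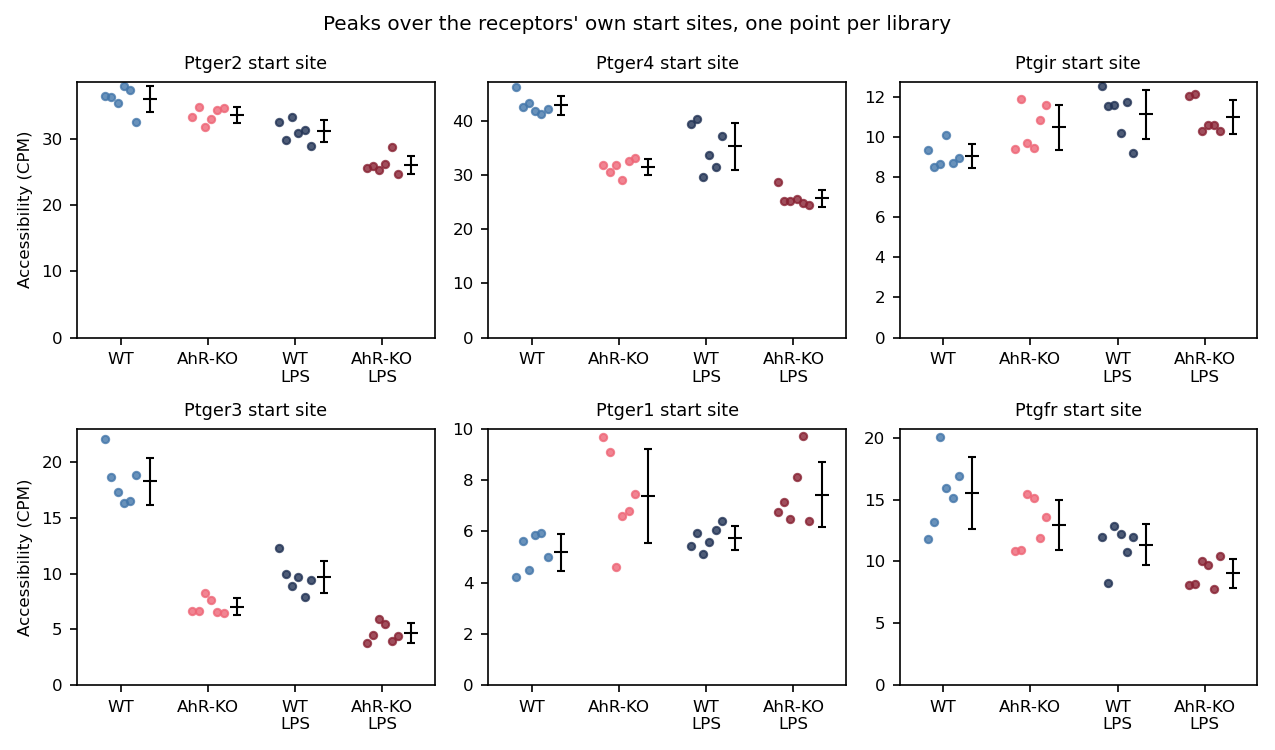
Accessibility (CPM, vertical axis) of the 6 peaks over receptor start sites in each library (points), by group, with the mean and SD of 6 libraries (black). At Ptger3 the group means run from 18.3 to 4.67 CPM, while at Ptgir the ranges of WT and AhR-KO overlap with and without LPS.

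An intronic peak of Ptger3 held the widest genotype difference of all receptor peaks. At +19.4 kb (chr3:157585972-157586552) unstimulated WT ranged from 3.84 to 11.5 CPM around a median of 9.25, against 0.757 to 1.49 around 1.07 in unstimulated AhR-KO. WT with LPS ranged from 1.58 to 3.33 around 2.54 and AhR-KO with LPS from 0.430 to 1.26 around 0.749. The spread within unstimulated WT was wide, with replicates 3 and 5 lowest, but no AhR-KO library reached the lowest WT library of its treatment. The peak fell in AhR-KO without LPS (log2 fold change -2.95 ± 0.23 (SE), adjusted p = 5.02e-11) and with it (-1.67 ± 0.26, adjusted p = 4.69e-06). In the libraries' own peak lists it was called in 6 of 6 unstimulated WT and 6 of 6 LPS WT libraries, but in 2 of 6 and 0 of 6 AhR-KO libraries.

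The peaks at +2.2, +14.7 and +50.2 kb had the same order. At +2.2 kb (chr3:157568989-157569209) unstimulated WT held 1.98 to 4.21 around 3.21 CPM and unstimulated AhR-KO 0.541 to 0.966 around 0.787 (log2 fold change -2.03 ± 0.19 (SE), adjusted p = 8.26e-11). At +14.7 kb (chr3:157581270-157582002) the ranges were 3.26 to 6.47 around 4.57 and 0.865 to 1.95 around 1.36 CPM (-1.79 ± 0.17, adjusted p = 1.02e-10). At +50.2 kb (chr3:157616817-157617302) they were 5.82 to 9.26 around 8.16 and 1.82 to 3.03 around 2.31 CPM (-1.76 ± 0.15, adjusted p = 8.75e-12). WT and AhR-KO libraries did not overlap at any of the 3 peaks, unstimulated or with LPS. With LPS the 3 peaks were still lower in AhR-KO, with log2 fold changes of -0.84, -0.82 and -1.15. None of the 3 was called in any AhR-KO library with LPS, and the +50.2 kb peak alone was called in unstimulated AhR-KO, in 2 of 6. The peak at +5.3 kb was the remaining one that was lower under both treatments (-0.94 and -0.79).

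LPS closed much of the same locus. In WT 14 Ptger3 peaks were lower and 1 higher with LPS (65.2% against 47.0% of all peaks in either direction), and in AhR-KO 8 were lower and 2 higher (43.5% against 48.8%). All 8 were among the 14. The genotype and LPS comparisons share the unstimulated WT libraries, so their values stand side by side without a measure of likeness. The +2.2 kb peak fell in WT by 1.83 on the log2 scale and the +19.4 kb peak by 1.74, against -0.65 and -0.46 in AhR-KO, the last not past the test (adjusted p = 0.175). At +63.1 kb (chr3:157629760-157630151) LPS lowered the level in both genotypes. Unstimulated libraries held 13.3 to 14.8 around 13.8 and 12 to 14.7 around 13.6 CPM in WT and AhR-KO, and LPS libraries 5.54 to 7.58 around 6.77 and 6.18 to 8.88 around 7.30. It fell by 1.05 and 0.89 on the log2 scale (adjusted p = 1.12e-12 and 4.71e-11), and its genotype difference was -0.05 without LPS (adjusted p = 0.696).

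A pair of intronic peaks went other ways. At +55.0 kb (chr3:157621275-157622509) the level rose with LPS, from a median of 12 (9.31 to 12.4) CPM to 26.9 (24.5 to 28.6) in WT and from a median of 15.8 (14.3 to 17.3) to 36.9 (31.9 to 40.8) in AhR-KO, without overlap between any 2 of the 4 groups. The log2 fold changes with LPS were 1.21 ± 0.07, adjusted p = 8.48e-17, and 1.20 ± 0.07, adjusted p = 1.16e-17. Its genotype differences of 0.46 and 0.45 were below the 1.5-fold limit. At +46.7 kb (chr3:157613002-157614156) unstimulated AhR-KO libraries stood apart at 6.56 to 7.43 around 7.11 CPM, against 12.2 to 15.5 around 13 in unstimulated WT. With LPS both genotypes lay together, at 11.1 to 13.7 around 12 and 9.93 to 13 around 12. The peak fell in unstimulated AhR-KO (-0.94 ± 0.08, adjusted p = 2.63e-11), and its difference with LPS was -0.05 ± 0.08, adjusted p = 0.662. In AhR-KO it rose with LPS (0.75 ± 0.08, adjusted p = 3.88e-10).

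The genotype difference at Ptger3 was smaller with LPS than without at 5 peaks by the test of the difference itself: +2.2 kb (interaction log2 fold change 1.19 ± 0.30 (SE), adjusted p = 0.00564), +14.7 kb (0.97 ± 0.25, adjusted p = 0.00619), +19.4 kb (1.28 ± 0.36, adjusted p = 0.0164), +46.7 kb (0.89 ± 0.11, adjusted p = 1.29e-06) and +60.7 kb (0.71 ± 0.18, adjusted p = 0.00715). These were 5 of the 6 positive interactions among the receptors. At +2.2, +14.7 and +19.4 kb unstimulated AhR-KO means were already low, at 0.761, 1.37 and 1.07 CPM. Such levels leave little room for a fall with LPS in AhR-KO, and the part of this in the interaction was not tested. At the start site the interaction was 0.32 ± 0.15, adjusted p = 0.159. The +60.7 kb peak, named here because of its interaction, held 18.7 ± 4.64 CPM in unstimulated WT, 8.71 ± 1.13 in unstimulated AhR-KO, 7.48 ± 1.03 in WT with LPS and 5.69 ± 0.761 in AhR-KO with LPS.

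**Figure D3:**
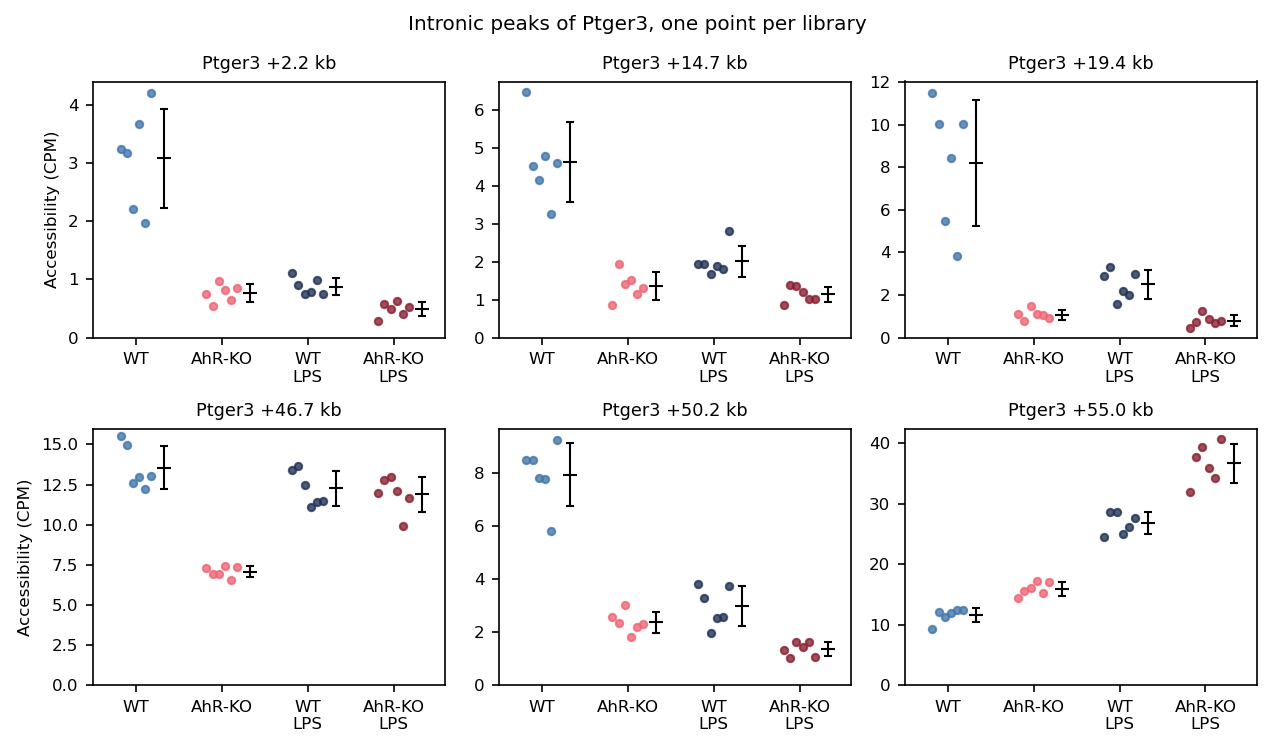
Accessibility (CPM, vertical axis) of 6 intronic Ptger3 peaks in each library (points), by group, with the mean and SD of 6 libraries (black); each panel is named by the distance of the peak centre from the 5′ end of the gene. At +2.2, +14.7, +19.4 and +50.2 kb unstimulated WT stands above the other 3 groups, at +46.7 kb unstimulated AhR-KO stands below them, and at +55.0 kb both LPS groups stand above.

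Across the 24 libraries, the start-site peaks of other protein-coding genes whose log2 CPM ran most like that of Ptger3 were Nrep (Pearson r = 0.978), Suclg2 (0.974) and Tmem125 (0.969). These are descriptions over libraries that share 4 groups.

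Ptgdr2, also called CRTH2, is the Gi-coupled receptor of prostaglandin D2 known from type 2 lymphocytes and eosinophils. It had no peak over its start site. Its intronic peak at +1.6 kb (chr19:10938471-10938962) was low in all groups, at 1.37 to 2.35 around 1.54 CPM in unstimulated WT, 0.763 to 1.97 around 1.44 in unstimulated AhR-KO, 0.431 to 1.66 around 1.10 in WT with LPS and 0.291 to 0.948 around 0.659 in AhR-KO with LPS. The ranges overlapped between neighbouring groups, and the peak fell with LPS in WT (-0.63 ± 0.24, adjusted p = 0.0234) and AhR-KO (-1.10 ± 0.27, adjusted p = 0.00051). With LPS it was also lower in AhR-KO than in WT (-0.75 ± 0.27, adjusted p = 0.0206). The -16 kb peak, nearer to Zp1, rose with LPS (0.73 ± 0.21, adjusted p = 0.00323 in WT; 0.70 ± 0.20, adjusted p = 0.00299 in AhR-KO). Upstream, the -4.0 kb peak rose with loss of AhR in unstimulated cells, from a median of 1.31 (0.925 to 1.70) to 1.97 (1.85 to 2.37) CPM (0.63 ± 0.16, adjusted p = 0.00182). The largest genotype difference in the window belonged to the peak at +19.8 kb, nearer to Ccdc86 than to Ptgdr2, where unstimulated WT held 0.441 to 1.14 around 0.650 CPM and AhR-KO 0 to 0.236 around 0.156 (log2 fold change -2.16 ± 0.39 (SE), adjusted p = 2.9e-05); no library held more than 23 counts. The +19.8 kb peak was called in 1 unstimulated WT library and no other. The promoter of the neighbouring gene Ccdc86 at +11.4 kb was the 1 interaction DAR here, with log2 fold changes of 0.28 without and -0.39 with LPS (interaction -0.66 ± 0.12, adjusted p = 0.000181).

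Among the Gs-coupled receptors Ptger4, the prostaglandin E2 receptor best known for restraining macrophage cytokines, had the most accessible start site, at 20.9 CPM per kb of peak over all libraries. The start-site peaks of Ptgir, Ptger2, Ptgfr, Ptger3 and Ptger1 followed at 10.3, 9.75, 7.64, 7.20 and 3.70 CPM per kb. The place of Ptgir in this order depends on peak width. In CPM per peak, Ptger4 held 33.9, Ptger2 31.8 over 3263 bases, and Ptgfr 12.2. Ptgir held 10.4 over 1014 bases, Ptger3 9.92 and Ptger1 6.44. At the Ptger4 start site (chr15:5243275-5244896) unstimulated WT ranged from 41.4 to 46.3 CPM around a median of 42.5 and unstimulated AhR-KO from 29.2 to 33.3 around 31.9. WT with LPS ranged from 29.7 to 40.4 around 35.5 and AhR-KO with LPS from 24.5 to 28.8 around 25.3. Every AhR-KO library lay below every WT library of its treatment, yet the differences were under 1.5-fold (log2 fold change -0.44 ± 0.06 (SE), adjusted p = 5.7e-07; with LPS -0.46 ± 0.06, adjusted p = 2.59e-07), so the peak was not a DAR. LPS against unstimulated gave -0.28 in WT and -0.29 in AhR-KO, also without overlap. RefSeq's promoter of Ptger4, on the minus strand, is shown because it is that of the most accessible receptor start site and, unlike that of Ptger3, held no match to any of the motifs searched.
Ptger4 promoter, chr15:5244188-5244437: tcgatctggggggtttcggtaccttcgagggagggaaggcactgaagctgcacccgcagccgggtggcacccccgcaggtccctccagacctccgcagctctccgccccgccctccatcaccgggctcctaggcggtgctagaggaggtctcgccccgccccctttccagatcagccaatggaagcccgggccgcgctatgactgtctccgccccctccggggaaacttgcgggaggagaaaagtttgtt

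Of 15 tested Ptger4 peaks, 4 were lower and 0 higher in unstimulated AhR-KO, 26.7% against 12.6% of all peaks lower. With LPS 2 were lower and 0 higher, 13.3% against 13.1%, a share near that of all peaks. The coding-exon peak at +2.0 kb (chr15:5241621-5242750) fell from a median of 14 (11.1 to 15) CPM in unstimulated WT to 8.58 (7.99 to 10.2) in AhR-KO, without overlap (-0.61 ± 0.10, adjusted p = 3.44e-06); with RLE size factors the value was -0.55 and below the fold limit. With LPS its libraries did not overlap either, at -0.55. Upstream of the gene, the -14.4 kb peak fell in AhR-KO in unstimulated cells (-1.31 ± 0.25, adjusted p = 5.65e-05) and, from lower levels and in a call lost with DESeq2 (adjusted p = 0.0715), with LPS (-0.79 ± 0.30, adjusted p = 0.0289), with group means from 0.185 to 0.884 CPM. At +13.2 kb in the intron the genotypes differed with LPS alone by the test (-0.81 ± 0.23, adjusted p = 0.00459, against 0.27 ± 0.24, adjusted p = 0.402 without), and the interaction was -1.08 ± 0.33, adjusted p = 0.0252. The -18.9 kb peak rose with LPS by 0.73 in WT and 0.63 in AhR-KO (adjusted p = 6.81e-05 and 0.000302). Far downstream, at +49.0 kb and nearer to Ttc33, a peak rose with LPS from a median of 4.08 (3.40 to 4.42) to 8.73 (7.79 to 10.1) CPM in WT (1.14 ± 0.10, adjusted p = 4.49e-12) and from a median of 3.10 (2.99 to 3.51) to 10.2 (8.43 to 11.5) in AhR-KO (1.65 ± 0.10, adjusted p = 1.13e-16).

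Ptger2, the other Gs-coupled receptor of prostaglandin E2, had few genotype DARs. Its start-site peak (chr14:44987420-44990682) held 32.7 to 38.1 around 36.5 CPM in unstimulated WT and 31.8 to 34.9 around 33.9 in AhR-KO, and 29 to 33.4 around 31.2 and 24.8 to 28.8 around 25.8 with LPS. Unstimulated groups overlapped and LPS groups did not, with log2 fold changes for genotype of -0.10 ± 0.05, adjusted p = 0.145, and -0.26 ± 0.05, adjusted p = 0.000101. Of 13 tested peaks, 0 were lower in AhR-KO under either treatment, and 1 was higher without and 2 with LPS, against 9.95% and 13.4% of all peaks higher. The intronic peak at +5.9 kb (chr14:44993801-44994312) was higher under both: unstimulated WT held 0.814 to 1.18 around 0.999 CPM against 1.74 to 2.87 around 2.14 in AhR-KO, and with LPS 0.699 to 0.981 around 0.861 against 1.19 to 1.81 around 1.48. Neither pair overlapped (log2 fold change 1.09 ± 0.17 (SE), adjusted p = 1.73e-06; with LPS 0.82 ± 0.16, adjusted p = 7.49e-05). Downstream at +33.5 kb a peak fell with LPS in WT (-0.73 ± 0.24, adjusted p = 0.00775). That peak was called in 1 unstimulated WT library and no other. The -16.5 kb peak rose with LPS by 0.82 on the log2 scale in each genotype (adjusted p = 0.0104 in WT and 0.00226 in AhR-KO) with group means from 0.340 to 0.990 CPM.

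Ptgdr, the Gs-coupled receptor of prostaglandin D2, lies on chromosome 14 like Ptger2. No peak covered its start site; the nearest ended just upstream of it and held group means from 0.248 to 0.558 CPM, lower in AhR-KO with LPS (-0.87 ± 0.33, adjusted p = 0.0306). At -2.0 kb (chr14:44861301-44861549) unstimulated WT held 0.582 to 1.19 around 0.786 CPM and AhR-KO 0.132 to 0.433 around 0.329 (log2 fold change -1.40 ± 0.30 (SE), adjusted p = 0.000243). With LPS the ranges were 0.554 to 1.06 around 0.823 and 0.179 to 0.633 around 0.340 and overlapped (-1.17 ± 0.26, adjusted p = 0.000431). This peak and the one just upstream of the start site were each called in 1 unstimulated WT and 1 LPS WT library. No AhR-KO library called either, so their place in the peak set is not independent of their genotype difference. At +11.2 kb LPS against unstimulated gave -0.59 ± 0.12, adjusted p = 6.79e-05 in WT, a call lost with RLE size factors, DESeq2, no filter and the replicate block, where the fold fell just short of 1.5. The downstream peak at +23.9 kb (chr14:44834919-44836127) went the other way with genotype: unstimulated WT ranged from 7.02 to 9.41 around 7.90 CPM and AhR-KO from 10.5 to 14 around 12.8, and with LPS WT from 3.82 to 6.16 around 5.30 and AhR-KO from 7.13 to 8.88 around 8.21. WT and AhR-KO did not overlap, nor did LPS and unstimulated cells. It was higher in AhR-KO by 0.65 and 0.67 on the log2 scale (adjusted p = 2.61e-06 and 1.47e-06), and fell with LPS by 0.65 in WT and 0.63 in AhR-KO (adjusted p = 1.39e-06 and 6.54e-07).

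Ptgir, the prostacyclin receptor, was the 1 receptor with 0 genotype DARs among its tested peaks, 12 in number, under either treatment, against 22.6% and 26.5% of all peaks. Its widest genotype difference in unstimulated cells, at -6.2 kb, passed the p limit but not the fold limit (log2 fold change 0.57 ± 0.12 (SE), adjusted p = 0.000166). Its start-site peak held 8.50 to 10.1 around 8.84 CPM in unstimulated WT and 9.44 to 11.9 around 10.3 in AhR-KO, and 9.22 to 12.6 around 11.6 and 10.3 to 12.1 around 10.6 with LPS, overlapping between genotypes, and was called in 3 of 6 unstimulated libraries of each genotype and in 6 of 6 with LPS. These calls touched any part of that peak. The start site of Ptgir itself was covered in 3 of 6 unstimulated WT and 2 of 6 unstimulated AhR-KO libraries. With LPS it was covered in 3 of 6 libraries of each genotype. A pair of upstream peaks fell with LPS in both genotypes. At -4.4 kb (chr7:16901672-16902502) unstimulated WT ranged from 9.11 to 10.8 CPM around a median of 9.27 and AhR-KO from 9.60 to 13.9 around 12.6, against 2.28 to 3.65 around 2.76 and 2.33 to 2.89 around 2.38 with LPS. LPS and unstimulated libraries were far apart (log2 fold change -1.77 ± 0.11 (SE), adjusted p = 5.15e-16 in WT; -2.26 ± 0.11, adjusted p = 3.01e-19 in AhR-KO), the largest fall with LPS in AhR-KO among the receptor peaks. Its 300-base window is shown for that reason, on the plus strand, with 1 AhR core in capitals.
Ptgir -4.4 kb, chr7:16901938-16902237: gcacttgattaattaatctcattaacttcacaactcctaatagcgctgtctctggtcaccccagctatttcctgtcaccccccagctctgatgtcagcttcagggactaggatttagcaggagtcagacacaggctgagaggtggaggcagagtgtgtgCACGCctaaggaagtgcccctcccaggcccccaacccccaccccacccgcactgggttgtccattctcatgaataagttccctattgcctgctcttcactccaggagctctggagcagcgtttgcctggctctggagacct

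At -6.2 kb (chr7:16899992-16900603) unstimulated AhR-KO, at 10.8 to 13.3 around 12 CPM, lay above unstimulated WT at 5.35 to 9.19 around 8.39, and with LPS both genotypes lay together at 3.84 to 5.84 around 4.42 and 3.0 to 5.37 around 4.62. The interaction was -0.60 ± 0.17, adjusted p = 0.0145, and the fall with LPS was -0.82 in WT and -1.42 in AhR-KO.

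**Figure D4:**
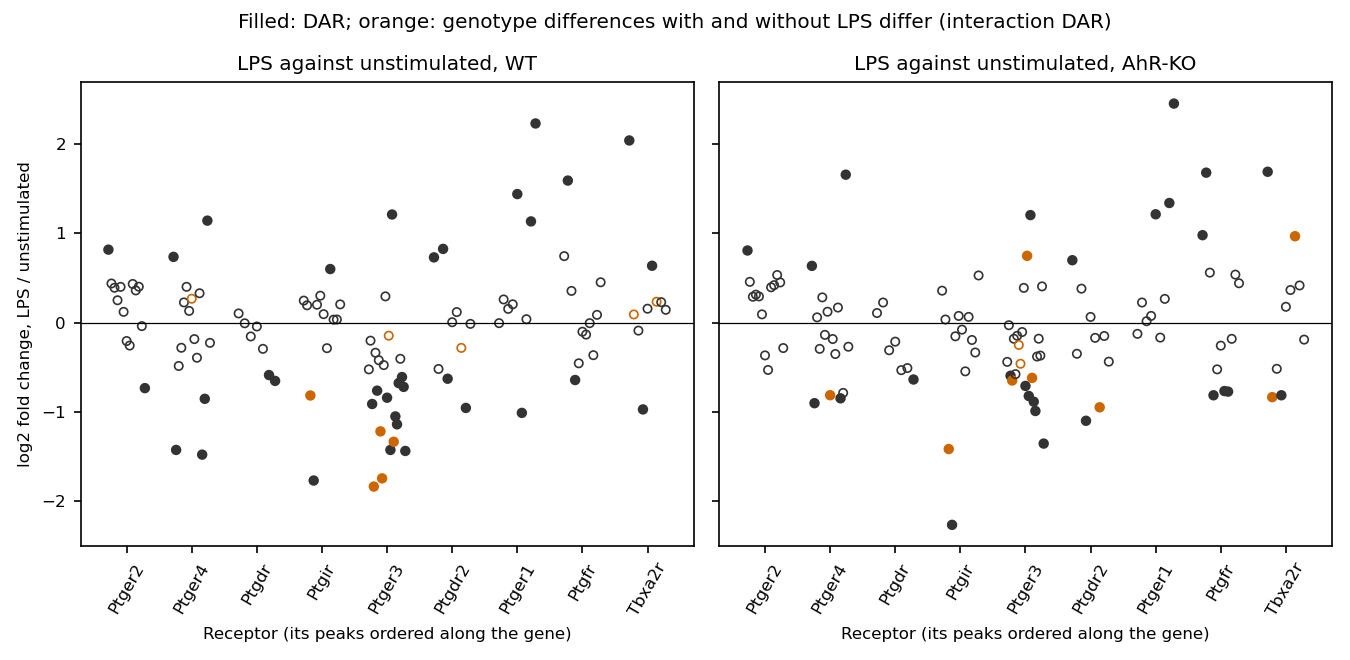
Log2 fold change of LPS against unstimulated cells (vertical axis) for the 108 tested peaks, grouped by receptor (horizontal axis), in WT (left) and AhR-KO (right); filled symbols are DARs and orange ones have a DAR of the interaction. Falls prevail at Ptger3 in WT, and the lowest symbol in AhR-KO is the -4.4 kb peak of Ptgir.

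Among the Gq-coupled receptors, Tbxa2r, the thromboxane receptor, had 4 of its 9 peaks higher and 0 lower in unstimulated AhR-KO cells, against 9.95% of all peaks higher. With LPS 2 were higher and 0 lower, against 13.4%. All 9 lay nearer to the start site of another gene. At -10.0 kb (chr10:81318629-81318860) unstimulated WT ranged from 0.991 to 1.93 CPM around a median of 1.64 and unstimulated AhR-KO from 4.60 to 8.01 around 5.54. With LPS, WT ranged from 1.56 to 2.25 around 1.66 and AhR-KO from 1.99 to 4.88 around 3.18, which overlapped. It was the peak most raised in AhR-KO among all receptors (log2 fold change 1.84 ± 0.17 (SE), adjusted p = 1.46e-10; with LPS 0.91 ± 0.17, adjusted p = 2.44e-05), it fell with LPS in AhR-KO (-0.83 ± 0.15, adjusted p = 1.07e-05), and the interaction was -0.93 ± 0.24, adjusted p = 0.00815. Its own peak was called in 5 of 6 unstimulated AhR-KO libraries and in 0 of 6 WT libraries of either treatment. The window, on the plus strand, held 1 PU.1 match.
Tbxa2r -10.0 kb, chr10:81318595-81318894: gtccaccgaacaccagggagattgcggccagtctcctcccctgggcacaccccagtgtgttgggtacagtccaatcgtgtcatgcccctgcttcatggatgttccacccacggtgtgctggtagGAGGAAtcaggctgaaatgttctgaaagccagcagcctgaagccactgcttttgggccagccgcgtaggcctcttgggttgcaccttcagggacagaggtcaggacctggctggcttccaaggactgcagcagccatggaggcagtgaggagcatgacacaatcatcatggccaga

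The promoter of the neighbouring gene Cactin, at -8.1 kb of Tbxa2r, was also higher in unstimulated AhR-KO, at 75.3 to 114 around 95.3 CPM against 55.2 to 62.7 around 59.8 in WT (0.65 ± 0.10, adjusted p = 1.31e-05). At -19.1 kb the level rose with LPS from a median of 0.548 (0.460 to 1.12) to 2.65 (2.33 to 3.06) CPM in WT (2.04 ± 0.19, adjusted p = 6.84e-12) and by 1.69 in AhR-KO. Downstream, the +10.0 kb peak was higher in AhR-KO under both treatments (0.65 and 0.81) and lower with LPS in both genotypes (-0.97 and -0.81). The +16 kb peak rose with LPS in AhR-KO (0.97 ± 0.15, adjusted p = 9.65e-07), against 0.23 ± 0.16, adjusted p = 0.194 in WT, and the interaction was 0.73 ± 0.22, adjusted p = 0.0202.

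Ptger1, the Gq-coupled receptor of prostaglandin E2, had the least accessible start-site peak per kb. There unstimulated WT held 4.23 to 5.93 around 5.31 CPM and AhR-KO 4.61 to 9.68 around 7.13, and with LPS the ranges were 5.11 to 6.42 around 5.75 and 6.40 to 9.73 around 6.95. AhR-KO and WT overlapped under both treatments, and the differences were under 1.5-fold (0.51 ± 0.14, adjusted p = 0.00249; with LPS 0.37 ± 0.13, adjusted p = 0.015). The adjoining peak at +1.9 kb, over coding sequence, was a DAR in unstimulated cells (0.63 ± 0.20, adjusted p = 0.011). The +12.7 kb peak was higher in AhR-KO with LPS (0.64 ± 0.22, adjusted p = 0.0181). At +6.7 kb the level rose with LPS (1.44 ± 0.17, adjusted p = 5.76e-09 in WT; 1.21 ± 0.16, adjusted p = 4.63e-08 in AhR-KO), without overlap between LPS and unstimulated libraries. The +9.1 kb peak fell in unstimulated AhR-KO (-1.22 ± 0.21, adjusted p = 1.45e-05) and with LPS in WT (-1.01 ± 0.20, adjusted p = 3.19e-05), with WT unstimulated at 1.22 to 2.87 around 1.43 CPM and the other 3 groups between 0.645 and 0.831 in the mean. That peak was called in 1 unstimulated WT library and no other.

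Ptgfr, the receptor of prostaglandin F2α, lies on chromosome 3 like Ptger3. Its start-site peak (chr3:151836591-151838188) held 11.8 to 20.1 around 15.5 CPM in unstimulated WT and 10.8 to 15.4 around 12.7 in AhR-KO, and 8.29 to 12.9 around 12 and 7.78 to 10.4 around 8.94 with LPS. Genotypes overlapped under both treatments (-0.27 ± 0.12, adjusted p = 0.0696; with LPS -0.33 ± 0.12, adjusted p = 0.0203), and LPS against unstimulated gave -0.46 in WT and -0.52 in AhR-KO, below the fold limit. Of 11 tested peaks 1 was lower in AhR-KO without and 2 with LPS, both intronic, and 0 were higher, against 12.6% and 13.1% of all peaks lower. At +15.6 kb (chr3:151821901-151822253) WT with LPS held 0.533 to 1.11 around 0.738 CPM and AhR-KO with LPS 0.108 to 0.446 around 0.321, without overlap (-1.43 ± 0.26, adjusted p = 1.94e-05). In unstimulated cells the ranges were 0.582 to 0.990 around 0.722 and 0.379 to 0.615 around 0.459 (-0.66 ± 0.26, adjusted p = 0.0355), a call that was lost with RLE size factors and with DESeq2. At +9.5 kb the difference with LPS was -0.91 ± 0.17, adjusted p = 2.51e-05. The +9.5 and +15.6 kb peaks were each called in 2 WT libraries with LPS and in no other library. Their place in the peak set is therefore not independent of their difference with LPS. The -3.3 kb peak fell with LPS (-0.64 ± 0.19, adjusted p = 0.00276 in WT; -0.81 ± 0.18, adjusted p = 0.000168 in AhR-KO). The -18.0 kb peak rose with LPS in WT from a median of 1.34 (0.931 to 1.84) to 4.45 (3.43 to 5.77) CPM and in AhR-KO from a median of 1.68 (1.53 to 2.22) to 5.71 (4.83 to 6.26), without overlap (1.59 ± 0.15, adjusted p = 1.77e-11; 1.68 ± 0.14, adjusted p = 4.65e-13).

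Over the 300-base windows of all 117 receptor peaks, the AhR core was present in 31 (26.5%), against 16.02% of all consensus peaks, and no window held the full cyclic AMP response element, against 0.463%. PU.1 matches were in 47.0% of receptor windows against 37.4% of all, and AP-1, NF-kB, C/EBP and IRF patterns in 16.2%, 13.7%, 13.7% and 2.56% against 17.9%, 15.2%, 15.7% and 4.59%. The AhR core was in 6 of the 21 windows lower in unstimulated AhR-KO, 2 of the 8 higher and 21 of the 79 not called. AP-1 matches were in 6 of the 13 windows that rose with LPS in WT and 2 of the 27 that fell. Ptger4, Ptgir, Ptger3 and Tbxa2r held 8, 6, 6 and 5 of the 31 windows with an AhR core, and Ptgdr held 0.

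Beyond the receptors, 51 genes of prostanoid synthesis, transport, breakdown and signalling were examined, of which 43 had a tested peak over a start site. In unstimulated cells 5 of the 43 genes were lower in AhR-KO and 0 higher, where 6.22% of start-site peaks of protein-coding genes were DARs in either direction; a gene with several such peaks counts once. They were Ptgs1 and Ptgs2, the cyclooxygenases (-0.79 ± 0.07 and -0.61 ± 0.07 on the log2 scale, SE, adjusted p = 1.22e-10 and 9.49e-09), Hpgds, the hematopoietic prostaglandin D synthase (-0.63 ± 0.09, adjusted p = 9.82e-07), and 1 of 2 start sites of Pde4b and 1 of 5 of Pde4d, phosphodiesterases that break down cyclic AMP (-0.69 ± 0.22, adjusted p = 0.0122, and -0.91 ± 0.13, adjusted p = 4.53e-07). The called Pde4b site held group means from 0.367 to 0.929 CPM. The other Pde4b site held 31.3 to 44.4 CPM and was no DAR (-0.14 without LPS). The called Pde4d site held 2.33 to 7.74 CPM, and the other Pde4d sites were no genotype DARs. With LPS, where the share of start-site peaks was 6.98%, the same Pde4d site was lower (-0.78 ± 0.11, adjusted p = 3.43e-07) and Hpgd, which inactivates prostaglandins, higher (0.71 ± 0.12, adjusted p = 7.62e-06). The genotype difference changed with LPS at Ptgs2 (interaction 0.66 ± 0.09, adjusted p = 7.88e-06) and Hpgd (0.64 ± 0.17, adjusted p = 0.00818). LPS lowered 6 and raised 2 of the 43 genes in WT and lowered 8 and raised 3 in AhR-KO, against DARs at 10.4% and 15.9% of start-site peaks, with Pde4d counted on both sides through different start sites. Ptgs2 rose in both (0.96 ± 0.07, adjusted p = 3.07e-15, and 1.62 ± 0.07, adjusted p = 1.03e-21).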

How the data were processed

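ATAC-seq counts came from 24 libraries of mouse BMDMs, 6 per group, and the study gives 6 animals per group from a single experiment. Whether the same mouse gave both an unstimulated and an LPS culture is not stated. Per the methods, the authors ran the nf-core atacseq pipeline on mm10, called broad peaks in each library with MACS2, merged them into consensus peaks and counted reads in them; the deposited counts are raw counts from featureCounts 2.0.1 (per the file header, overlap of at least 0.2 of a read, reads in several peaks counted in each). The deposited peak lists of each library hold a fold enrichment ratio and a −log10 p-value and were used only for whether a peak was called. Consensus starts count from 0 and are given here from 1.

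A script assigned peaks to receptors by GENCODE vM21 gene bodies and 20 kb either side. The test was edgeR 4.0.16's quasi-likelihood test on all consensus peaks after filterByExpr, with TMM factors, group as the one term and Benjamini-Hochberg adjustment over all tested peaks; it was tested on simulated data. Alternatives were RLE size factors, DESeq2 1.42.0, no filter, a replicate block, leaving out unstimulated WT replicate 5, a 5 kb window, peaks nearest to the receptor, and a fold of at least 2 (R 4.3.3). Named were every start-site peak, the 2 DARs of smallest p per receptor and comparison, the 3 of smallest p per direction over all receptors, and pathway genes with a start-site DAR of genotype. The Ptgdr -0.1 kb, Ptger3 +5.3 kb, Ptger3 +60.7 kb and Ptger4 +40.0 kb peaks were chosen after their values were seen. One peak in the window of Ptger1 that this rule names is not reported here. Members and lists were chosen with earlier results of these data known. No pair of libraries agreed within sampling noise: the closest had a chi-square of 1.26 per peak. Library totals ran from 8.54 to 34.6 M counts, and counts limit precision at peaks with few of them.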

Additional observations from a re-analysis of the deposited data

Results flagged for a closer look

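Within-group outliers were sought by Dixon's test (critical value 0.625 for 6 libraries) in 68 groups of libraries from 17 peaks, where chance alone flags about 1 in 20. One library stood apart in 4 of them. At the Ptger2 start site AhR-KO LPS replicate 5 held 28.8 CPM and the others 24.8 to 26.3. At the Ptger4 start site AhR-KO LPS replicate 1 held 28.8 CPM and the others 24.5 to 25.7. At Ptger3 +14.7 kb WT LPS replicate 6 held 2.80 CPM against 1.67 to 1.95 in the others, and at Ptger3 +9.1 kb unstimulated WT replicate 6 held 30.5 CPM against 35.8 to 36.4.

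The genotype difference itself differed between LPS and unstimulated cells at 10 peaks by the interaction term. It was more positive with LPS at Ptger3 +2.2 kb (1.19 on the log2 scale), +14.7 kb (0.97), +19.4 kb (1.28), +46.7 kb (0.89) and +60.7 kb (0.71) and at Tbxa2r +16 kb (0.73). It was more negative with LPS at Ptgdr2 +11.4 kb (-0.66), Ptger4 +13.2 kb (-1.08), Ptgir -6.2 kb (-0.60) and Tbxa2r -10.0 kb (-0.93).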

How the results depend on the processing

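RLE size factors, DESeq2, no filter on low counts and leaving out unstimulated WT replicate 5 moved none of the 16 counts by more than 1.5 times. Of 102 named values that were DARs, 98 kept their call and sign under all of these and the replicate block, and 4 lost the call under at least 1: Ptgdr +11.2 kb (LPS in WT), Ptger4 -14.4 kb (genotype with LPS), and Ptger4 +2.0 kb and Ptgfr +15.6 kb (genotype without LPS). The LPS value of the Ptger1 start site in AhR-KO, 0.01 and not called, was -0.026 both with RLE size factors and with DESeq2. A fold of at least 2 cut the DARs, lower and higher, to 11 and 2 (genotype, unstimulated), 6 and 0 (genotype, LPS), 12 and 7 (LPS, WT), 4 and 7 (LPS, AhR-KO) and 1 and 2 (interaction), and for Ptger3 to 6, 3, 8 and 1 lower and 2 higher for the interaction. A window of 5 kb left 4, 2, 4 and 3 higher in those comparisons and 2 lower for the interaction, and keeping only peaks nearest to the receptor's start site left 4, 4, 7 and 7 higher and 2 lower for the interaction; these hold fewer peaks by construction.

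Replicate numbers were not stated to pair libraries. Between genotypes, which cannot share a mouse, deviations of same-numbered libraries had correlations of -0.097 to 0.048 (unstimulated) and -0.128 to 0.219 (LPS). There 2 and 1 of the 6 libraries matched best with their own number. Between treatments of the same genotype all correlations were positive. For WT they spanned 0.037 to 0.290, with 4 of 6 such matches. For AhR-KO they spanned 0.0038 to 0.171, with 3 of 6. Whether same-numbered cultures of a genotype shared a mouse was not tested, and the main test left libraries unpaired. With the replicate number as a block the counts, lower and higher, were 22 and 9, 15 and 8, 26 and 13, 21 and 14, and 5 and 7 for the interaction.

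Depth limited the low peaks: the 9 untested ones held at most 18 counts in a library. No other library was left out, since all groups had more than 5.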
